A study of Rattus norvegicus with 3 samples.

Results

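Mitochondrial complex I genes of the cell nucleus were examined in proximal tubules isolated from the kidneys of male Sprague-Dawley rats. The members were the genes whose only annotated symbol on a probe set began with Nduf, the prefix of the subunits and assembly factors of NADH dehydrogenase. This choice used names and no measured value, though earlier results of these data were known when it was made. It gave 42 genes, with 46 probe sets, out of 14217 named genes on the arrays. The 42 genes comprised 34 subunits, 6 assembly factors, and Ndufa4 and its paralog Ndufa4l2. Ndufa4 keeps its historical name but is now counted as a subunit of complex IV.

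The study measured 3 tubule preparations on 1 Affymetrix expression array each, and they formed a single group with no control. All rats were 7 to 8 weeks old and were given intraperitoneal heparin (250 units, 30 min ahead of decapitation). After retrograde perfusion with cold buffered saline (10 ml) and then collagenase (10 ml at 2 mg/ml), the cortex was digested for 20 min and tubules were taken from a 42.5% Percoll gradient. The labels do not say whether the preparations came from different animals, so the spread between arrays may be technical in part. Values are signal intensities in arbitrary units, as mean ± SD (n = 3 arrays). Array medians over all 31042 non-control probe sets ran from 34.9 to 37.4. The 10 proximal tubule markers exceeded the median of every array, among them the endocytic receptor gene Lrp2 (8549.6 ± 569.6). All 6 thick ascending limb markers did so too, including Umod (4942 ± 656) and Slc12a1 (1809.6 ± 258), so the preparations also held RNA of another segment rich in mitochondria. Of 3 distal convoluted tubule markers measured, 2 exceeded it, with Slc12a3 at 659.9 ± 119, while Pvalb (2.52 ± 1.09) did not. Of 7 collecting duct markers, 3 exceeded it, with Aqp3 at 868.5 ± 66.6, while Aqp2 (14.0 ± 16.4) was among those that did not. Of all named genes, 61.0% exceeded the median of every array. RNA of further segments may have been present too, but these counts do not decide it. In such bulk samples, fewer cells of a type and less RNA per cell cannot be told apart.

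Complex I is the entry point of the respiratory chain. It passes electrons from NADH through a flavin and a chain of iron-sulfur clusters to ubiquinone, and uses the energy to pump protons across the inner mitochondrial membrane. Its L-shaped structure has a matrix arm, which carries the redox groups, and a membrane arm, which pumps protons. The core membrane subunits are encoded by mitochondrial DNA, while the core subunits of the matrix arm and all accessory subunits come from nuclear genes. Assembly factors help to build the complex and are absent from the finished enzyme. Proximal tubule cells reabsorb most of the glomerular filtrate and depend mainly on oxidative metabolism for it.

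Most members were strongly expressed, and 32 of 42 had a mean percentile above 90 among named genes, beside 9.86% of all named genes. Of the 42 genes, 41 exceeded the median of each of the 3 arrays, beside 61.0% of all named genes, and Ndufa4l2 did not. That median is a low line, as Ndufaf1 passed it with a mean percentile of 48.2 among named genes. All 34 subunits lay above the 75th percentile of probe sets on all 3 arrays, beside 36.4% of named genes, and 3 of 6 assembly factors did. The median percentile among all named genes was 96.4 for the 42 members (SD over arrays 0.1196, n = 3), 97.01 for the subunits and 70.2 for the assembly factors. Probe sets differ in affinity, so percentiles are read for lists, and single genes are not ranked against each other.

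**Figure D1:**
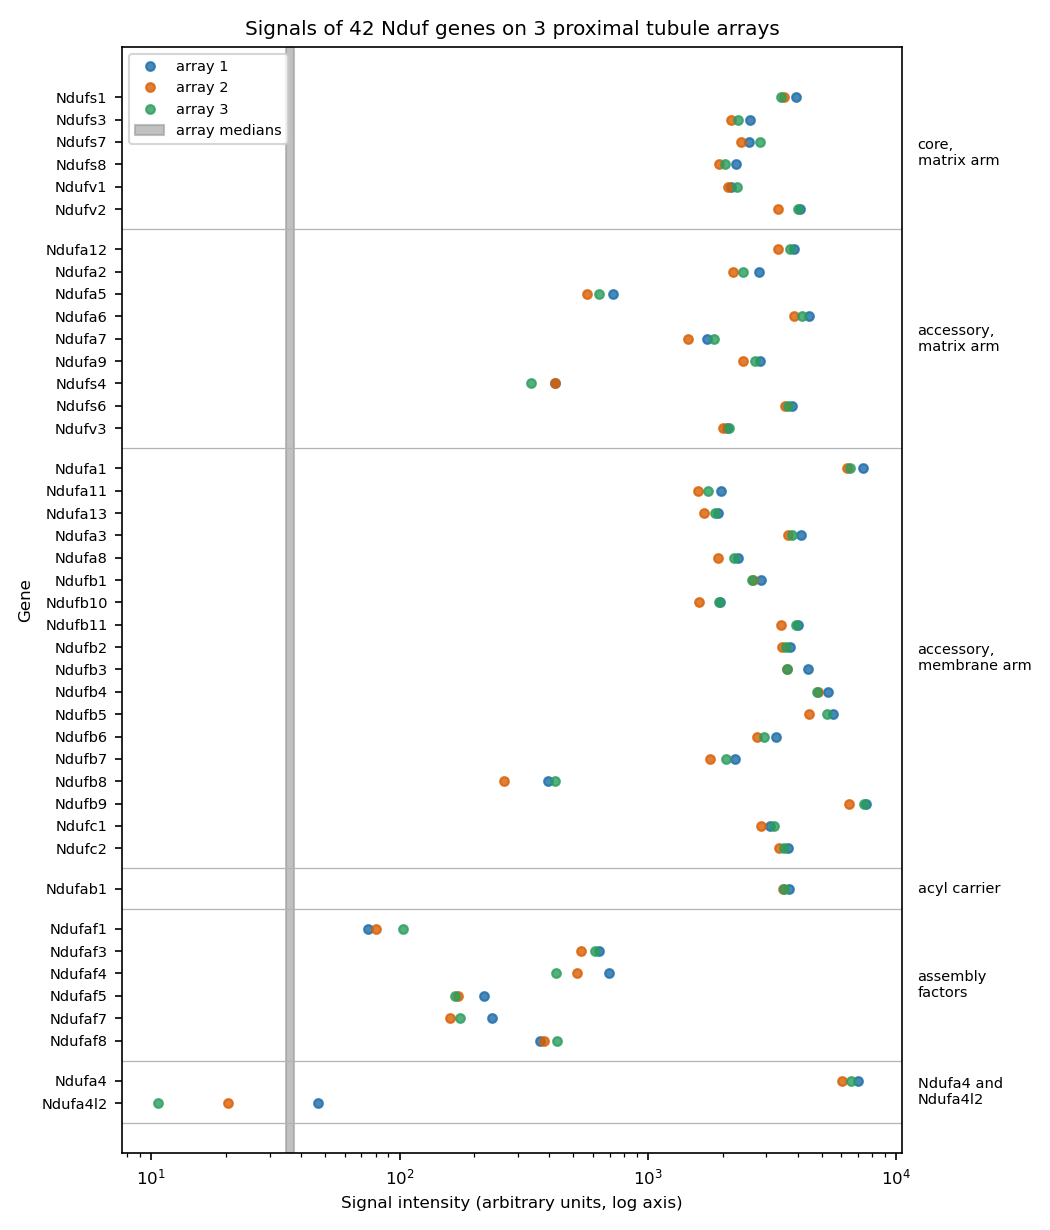
Signal of each of the 42 Nduf genes (rows, grouped by role) on arrays 1, 2 and 3 (coloured points) on a log axis, with the span of the array medians as a grey band. The 34 subunits lie far to the right of the band, the 6 assembly factors lie between the band and most subunits, and Ndufa4l2 straddles the band.

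Promoter sequences were examined next, since the choice by name did not use them. RefSeq windows from 250 bases before to 50 bases after the start of the gene (GRCr8) matched 40 of 42 members by gene identifier, and Ndufa8 and Ndufb9 had no entry. They were searched on both strands for GCGCA followed by any base and GCGC, the core of the NRF1 site, for CCGGAAG, the core bound by ETS factors such as GABPA, and for TCAAGGTCA, the site of estrogen-related receptors. These factors are known regulators of nuclear respiratory genes. The NRF1 motif stood in 8 of 40 member promoters (20%), beside 8.50% of the 11700 promoters of named genes and 4.71% of all 27457 promoters. The ETS motif stood in 9 of 40 (22.5%), beside 15.1% and 9.22%. The receptor motif stood in 0 of 40, beside 0.214% and 0.412%. Within the 250 bases before the start, 7 of 40 member promoters held the NRF1 motif, beside 7.66% of those of named genes. The ETS motif stood there in 9 of 40, beside 12.9%. A match is a description of letters and no evidence of binding.

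The NRF1 motif lay within 60 bases of the annotated start in 4 of the 7 members that held it before the start. The share of other promoters with a match this near was not computed, so these 4 members are shown as examples. Their last 60 bases before the start are shown 5′ to 3′ on the gene's strand, with the motif in capitals, so that its place relative to the start can be compared. The windows are chr4:53971236-53971295 (minus strand), chr3:147961552-147961611 (plus strand), chr1:31797340-31797399 (plus strand) and chr20:9613726-9613785 (plus strand) of GRCr8.
Ndufa5: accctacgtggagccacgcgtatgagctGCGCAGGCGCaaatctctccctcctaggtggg
Ndufaf5: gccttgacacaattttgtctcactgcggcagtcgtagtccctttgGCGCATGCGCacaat
Ndufs6: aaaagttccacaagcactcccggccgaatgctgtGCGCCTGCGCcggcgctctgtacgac
Ndufv3: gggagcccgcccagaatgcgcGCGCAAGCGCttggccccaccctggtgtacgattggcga
In Ndufs6 the motif was read on the opposite strand. Ndufa5, Ndufs6 and Ndufv3 are accessory subunits of the matrix arm, and Ndufaf5 is an assembly factor that modifies the core subunit Ndufs7.

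The ETS motif lay within 60 bases of the start in 5 of the 9 members that held it. These 5 are shown in the same way, again as examples with no share of other promoters computed. The windows are chr16:19560466-19560525 (plus strand), chr3:127104021-127104080 (minus strand), chr10:105879848-105879907 (plus strand), chr19:41477292-41477351 (minus strand) and chr1:210573699-210573758 (minus strand).
Ndufa13: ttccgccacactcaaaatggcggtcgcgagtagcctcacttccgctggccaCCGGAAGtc
Ndufaf1: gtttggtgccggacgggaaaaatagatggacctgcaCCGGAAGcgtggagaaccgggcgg
Ndufaf8: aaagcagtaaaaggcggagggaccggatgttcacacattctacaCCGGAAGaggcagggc
Ndufb7: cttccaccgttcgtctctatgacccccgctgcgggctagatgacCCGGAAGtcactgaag
Ndufs8: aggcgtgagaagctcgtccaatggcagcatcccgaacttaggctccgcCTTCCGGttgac
In Ndufaf8 and Ndufb7 the motif occupied the same place, from 16 to 10 bases before the start. In Ndufs8 it was read on the opposite strand, as CTTCCGG.

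Ndufa11 was the member whose promoter held 2 NRF1 matches, which overlapped by 4 bases. Its 250 bases before the start, chr9:1637364-1637613 (plus strand), show them as a single run of capitals.
Ndufa11: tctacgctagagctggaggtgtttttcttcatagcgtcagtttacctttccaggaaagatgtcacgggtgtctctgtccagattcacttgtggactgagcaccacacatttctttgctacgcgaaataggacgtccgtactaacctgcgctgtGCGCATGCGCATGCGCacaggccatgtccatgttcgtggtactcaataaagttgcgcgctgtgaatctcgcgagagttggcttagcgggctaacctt
The members with the NRF1 motif before the start were not set apart by level. Their median percentile was 94.7 (7 genes, from 62.5 to 97.95), beside 96.7 for the 33 members without it (from 27.8 to 99.5).

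**Figure D2:**
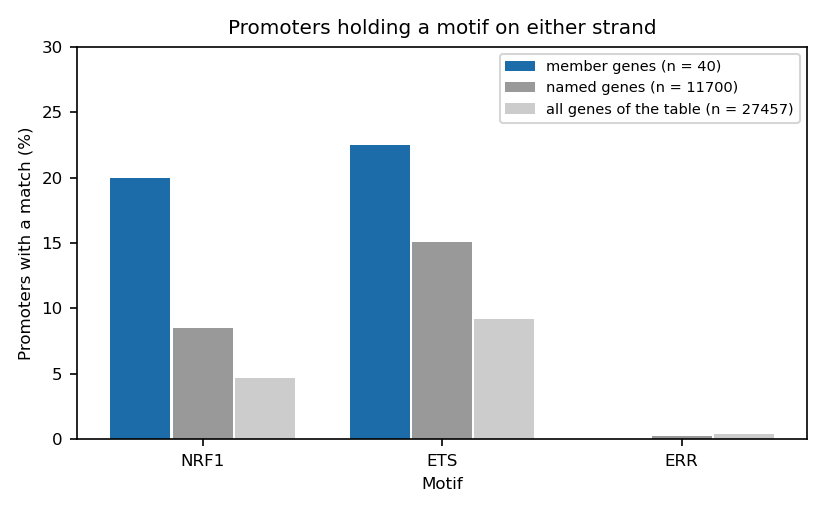
Share of promoters of 300 bases with a match on either strand (vertical axis, percent) for the NRF1, ETS and receptor (ERR) motifs, for 40 Nduf genes, 11700 named genes and all 27457 genes of the promoter table. The blue bars of the Nduf genes reach 20% and 22.5% for the first pair of motifs, above both grey bars, and are at 0 for the receptor motif.

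The 6 core subunits of the matrix arm that were measured had a median percentile of 96.3, and all 6 lay above the 75th percentile on all arrays. Ndufv1, which binds NADH and the flavin, gave 2157, 2091 and 2273 on arrays 1, 2 and 3 (2174 ± 92.1). Its partner Ndufv2, which carries an iron-sulfur cluster, gave 4089, 3352 and 4032 (3824 ± 410.1). Both were lowest on array 2. Ndufs1, the large subunit with several iron-sulfur clusters, gave 3641 ± 269. Near the quinone site, Ndufs7 gave 2579.7 ± 236 and Ndufs3 gave 2350.3 ± 210.4. Ndufs8, another iron-sulfur subunit whose promoter is shown above, gave 2269.9, 1937 and 2049.6 (2086 ± 169), with array 1 highest.

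Among 9 accessory subunits of the matrix arm (median percentile 96.4), 7 had mean signals above 1000. Ndufa6, a subunit of the LYR family that docks the acyl carrier protein, gave 4459, 3882 and 4156 (4166 ± 289). Ndufs6, a zinc-binding subunit, gave 3677 ± 124, Ndufa12 gave 3646 ± 272, and Ndufa9, near the quinone site, gave 2643 ± 211. These signals differed between arrays by at most 0.23 log2 units each. Ndufa2 gave 2473 ± 299, Ndufv3 2067 ± 65.7 and Ndufa7 1674 ± 205. The 2 members below 1000 were Ndufa5 (641 ± 76.3) and Ndufs4, which gave 423, 422 and 339 (395 ± 48.4). Ndufs4, a subunit whose loss causes Leigh syndrome in people and a similar disease in mice, was the member not below its own mean on array 2 on the deposited scale.

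The 18 accessory subunits of the membrane arm had a median percentile of 97.6. Ndufb9, a LYR family subunit, gave 7581, 6468 and 7402 (7150.2 ± 597), and Ndufa1, an X-linked subunit, gave 7309, 6317 and 6522 (6716 ± 523). For both, array 1 was highest and array 2 lowest. Ndufb5 gave 5084 ± 578, Ndufb4 4977 ± 269, Ndufb3 3888 ± 455, Ndufa3 3859.6 ± 252 and Ndufb11, which is X-linked as well, 3797 ± 318. Ndufb2 (3602 ± 138), Ndufc2 (3518 ± 148), Ndufc1 (3064 ± 184), Ndufb6 (2984 ± 265), Ndufb1 (2712 ± 127), Ndufa8 (2150.4 ± 202) and Ndufb7 (2023 ± 227) were measured as well. Ndufb10 gave 1832 ± 191, Ndufa11 1763 ± 187 and Ndufa13, also known as GRIM-19 and linked to cell death, 1816 ± 116. Ndufb8, the member of this group with a mean signal below 1000 on its probe set, gave 395, 263 and 421 (359.7 ± 84.9), so arrays 1 and 3 lay close together and array 2 was lower, with a range of 0.72 log2 units. Ndufab1, the mitochondrial acyl carrier protein, which sits in both arms and also serves fatty acid synthesis, gave 3688, 3493 and 3531 (3571 ± 103). Its range of 0.086 log2 units was the smallest of the 42 members.

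Assembly factors formed the lower group. Ndufaf3, which joins the early module at the membrane, gave 635, 537 and 609.6 (594 ± 50.9). Its partner Ndufaf4 gave 695, 516 and 425 (546 ± 137), highest on array 1, with a range of 0.63 log2 units. The Ndufaf3 and Ndufaf4 proteins act as a pair, but their lowest signals fell on different arrays. Ndufaf8 gave 393 ± 31.4, the methyltransferase gene Ndufaf7 189.8 ± 39.5 and Ndufaf5 185 ± 28.1. Ndufaf1, a factor of the membrane arm, gave 74.7, 79.97 and 103 (86.02 ± 15.3) and was lowest on array 1. Of the 34 subunits, 31 had a mean percentile above 90, beside 9.86% of named genes, and 0 of the 6 assembly factors did. Ndufaf2 and Ndufaf6 were not analysed here.

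Assembly factors without the Nduf name had a similar place. Of 14 listed, 13 were measured, and 12 of these exceeded the median of each array, beside 61.0% of all named genes. The median percentile of the 13 was 73.2. Acad9, Ecsit and Tmem126b, partners of Ndufaf1 in one assembly complex, gave 441 ± 37.6, 403 ± 24.1 and 1404 ± 151. Timmdc1 gave 470.2 ± 78.3, Foxred1 282 ± 71.4 and Nubpl, which delivers iron-sulfur clusters, 166 ± 2.85. Aifm1, an import and cell death factor, gave 2053 ± 177. Tmem70, better known for ATP synthase, gave 39.1, 23.7 and 19.1 and was the member of that list not above the median on all arrays. The subunits encoded by mitochondrial DNA were not analysed here.

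**Figure D3:**
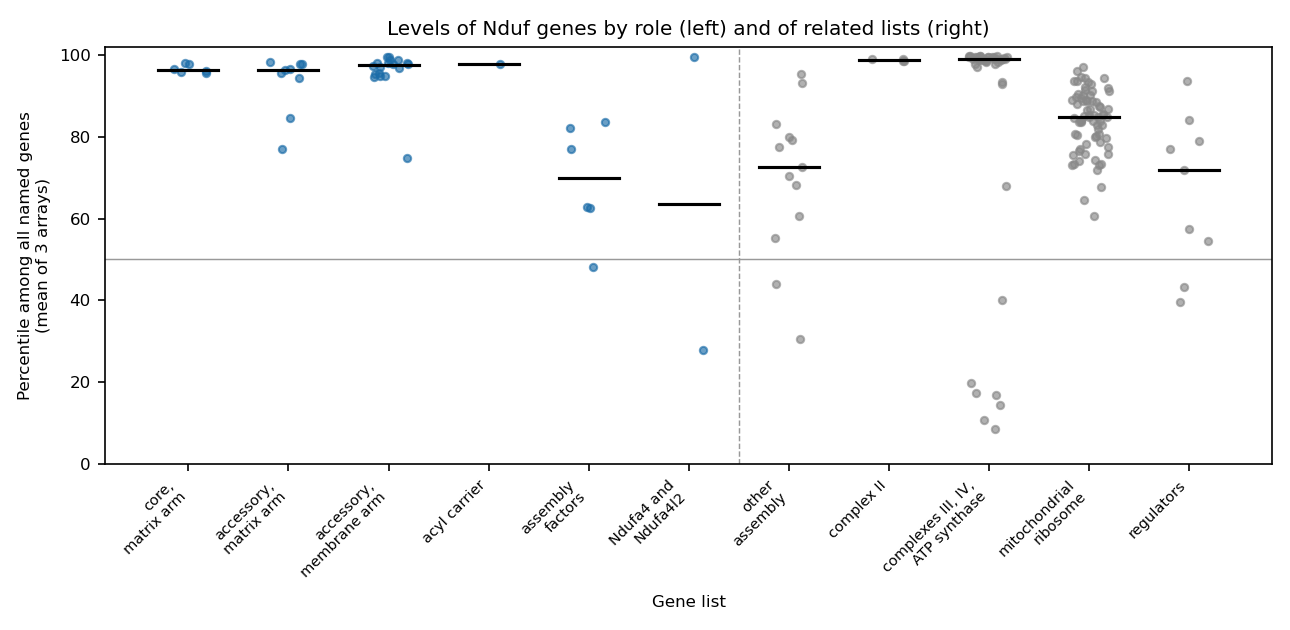
Mean percentile over 3 arrays of each gene (points) among 14217 named genes, by role for the Nduf genes (blue, left) and for related lists (grey, right); black bars are medians of the points. Subunits of both arms crowd above 90 apart from Ndufs4, Ndufa5 and Ndufb8, while both groups of assembly factors are spread lower.

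The other complexes give the scale for these levels. All 4 complex II genes lay above the 75th percentile on all arrays, beside 36.4% of named genes. Their median percentile was 98.8, with Sdha at 5657 ± 479. For 41 genes of complexes III and IV and ATP synthase the median percentile was 98.99. Of these, 35 were above the median of each array, beside 61.0% of all named genes. Those not above it were Cox4i2, Cox6a2, Cox6b2, Cox7a1, Cox7b2 and Cox8b, at mean percentiles from 8.53 to 19.8. The list also held the pseudogene Cox6c-ps1, so it was not matched to the complex I subunits. For 73 mitochondrial ribosomal protein genes the median percentile was 85.2, with all 73 above the median, beside the same 61.0%. The complex I subunits, at 97.01, thus lay between these lists, and no test of the differences was made.

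Regulators of nuclear respiratory genes were measured for 9 of 10 listed genes, with a median percentile of 71.8. All 9 exceeded the median of each array, beside 61.0% of named genes, but Nrf1 and Pprc1 had mean percentiles of only 43.1 and 39.5. Ppargc1a, the coactivator of mitochondrial biogenesis, gave 692, 568 and 591 (617 ± 66.03), and the receptor gene Esrra gave 390.2 ± 37.2. Nrf1 gave 56.5, 69.6 and 60.7 (62.3 ± 6.696), and Gabpa, of the ETS family, gave 279, 339.9 and 276 (298 ± 36.1). Of the 9 regulators, 5 were highest on array 2, Nrf1 and Gabpa among them, beside 25.2% of named genes. Ppargc1a was lowest on array 2, and Esrra and Tfam were highest on array 1.

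Ndufa4 and Ndufa4l2 were each described on their own, since their probe sets may differ in affinity. Ndufa4 gave 7006, 6066 and 6565 (6545 ± 470.3). Ndufa4l2, a target of hypoxia-inducible factor that is known to restrain mitochondrial respiration, gave 46.97, 20.4 and 10.6 (25.99 ± 18.8), above the median on array 1 and below it on arrays 2 and 3. Its range of 1.18 log2 units made it the member that reached a 2-fold difference between arrays, as 4.46% of all named genes did. At signals this low, and with no detection calls used, this difference has no replicate check. Endothelial markers (4 of 5 measured, none at 0) had summed signals of 632, 883 and 1103, and immune markers (5 of 5, none at 0) 5626, 3623 and 5595, on arrays 1, 2 and 3. Most of the immune sum came from Cd74, at 4952, 3011 and 4827. The endothelial sum was lowest on array 1, where Ndufa4l2 was highest. Their part in the Ndufa4l2 values was not tested.

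The median spread between the 3 preparations was near that of other genes for the subunits. It was wider for the 6 assembly factors with an Nduf name, though not for each of them. Signals were compared as log2(signal + 16), centred on the array median. The median SD over arrays was 0.13 log2 units for subunits and 0.21 for these 6 assembly factors. Among these 6 the SD was 0.14 for Ndufaf3, 0.15 for Ndufaf8, 0.18 for Ndufaf5 and from 0.25 to 0.32 for the others. The median SD was 0.13 for the 13 assembly factors without the Nduf name, so the wider median was not shared by that list. All named genes gave 0.18, those above the median level 0.15 and those with a mean signal above 1000 gave 0.13. Of the 40 members above the median level, 0 ranged by 2-fold or more, beside 1.49% of 7108 such genes, a share near 0 as well. After Ndufa4l2, the widest ranges were those of Ndufb8 (0.72 log2 units), Ndufaf4 (0.63) and Ndufaf7 (0.52).

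A small dip on array 2 ran through the list. Array 2 gave the lowest signal for 32 of 42 members, beside 38.3% of all named genes, and array 1 the highest for 34, beside 46.9%. On the centred log2 scale, 41 of 42 members lay below their own mean on array 2, beside 64.6% of named genes, and Ndufs4 did not. Strong signals shifted this way across the array, since array 2 was the lowest for 66.7% of the 1372 named genes with a mean signal above 1000, and for 28 of the 32 members above that line. Of those genes, 91.3% lay below their own mean on array 2, as did 32 of the 32 members, and 72.8% were highest on array 1, as were 27 of the 32 members. The median deviation of the members from their own means was 0.08, -0.13 and 0.04 log2 units on arrays 1, 2 and 3, beside 0.08, -0.11 and 0.03 for the genes above 1000. By subunit group it was -0.13 on array 2 for the core subunits, -0.15 for the accessory subunits of the matrix arm and -0.14 for those of the membrane arm. For the assembly factors it was -0.11, and all 6 lay below their own means there. Array 2 was the lowest for 29 of the 34 subunits and 2 of the 6 assembly factors.

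After quantile normalization, which gives the arrays the same distribution, the members' median deviation on array 2 was -0.019 log2 units. It was 0.0030 for named genes with a mean signal above 1000 and 0.0014 for all named genes. Of the 42 members, 21 were lowest there, beside 32.0% of named genes. Above a mean signal of 1000 it was 17 of 32 members, beside 30.4% of genes. On this scale 27 of 42 members lay below their own mean on array 2, beside 49.6% of named genes, so 15 did not. The members' median deviation on array 1 became 0.0050, and it was 0.0054 when array 2 was left out of the values as deposited. Summed signals as deposited of the proximal tubule markers were 67955, 61382 and 64877, and those of the thick ascending limb markers 15809.6, 13332 and 13807, both lowest on array 2. The sums over all named genes, 6.23e+06, 5.53e+06 and 5.77e+06, were lowest on array 2 as well. The beta-actin control probe sets, a sign of RNA quality, gave 3′ over 5′ ratios of 3.85, 3.28 and 3.66 on arrays 1, 2 and 3, lowest on array 2. Those for GAPDH were 1.52, 1.52 and 1.4, lowest on array 3. The part of RNA quality or cell makeup in the dip was not tested.

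**Figure D4:**
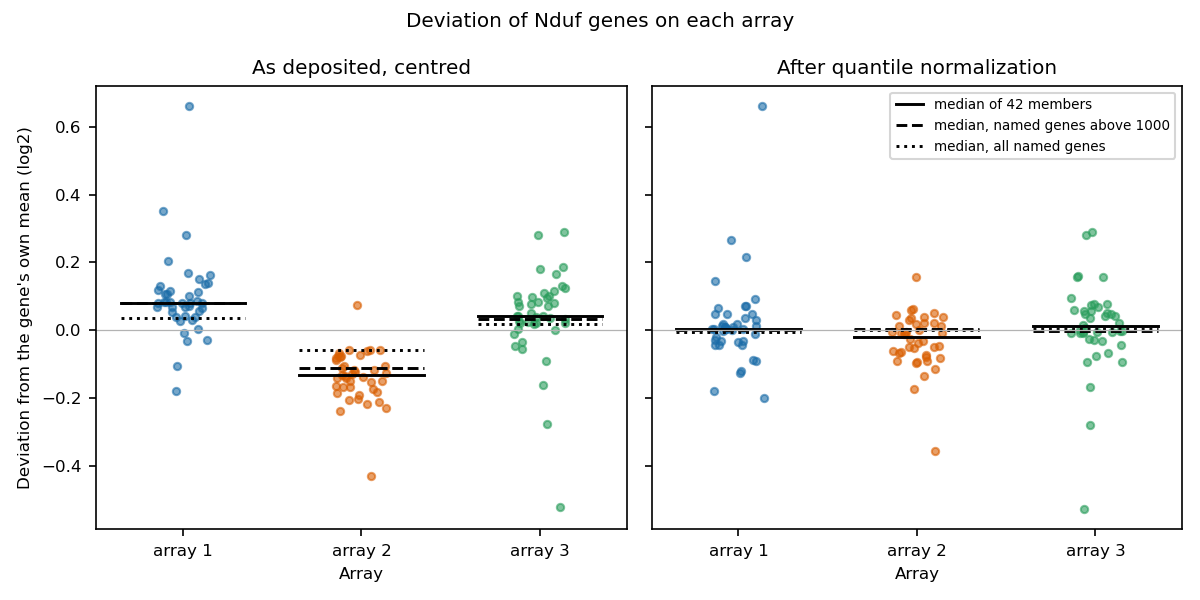
Deviation of each of the 42 Nduf genes from its own mean over the arrays (vertical axis, log2 units) on arrays 1, 2 and 3, as deposited and centred (left) and after quantile normalization (right); lines are medians of the members, of named genes above a mean signal of 1000 and of all named genes. On array 2 the members' median is at -0.13 on the left and at -0.019 on the right.

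For 4 members the array held 2 probe sets, and these show how far a level depends on the probe set. For Ndufa9 they gave 2828, 2413 and 2686 and 36.01, 42.4 and 28.7, and the second lay on both sides of the array median. For Ndufa7 they gave means of 1674 ± 205 and 97.7 ± 9.49. For Ndufv3, whose transcripts have a short and a long form, they gave 2067 ± 65.7 and 306 ± 31.8. For Ndufaf7 they gave 189.8 ± 39.5 and 80.7 ± 18.6. Within each gene the order of the probe sets was the same on all 3 arrays. The gene values above use the probe set of higher mean. Pseudogenes add another limit, since 18 of 42 members have 1 or more in the RefSeq table, up to 7 for Ndufb4, and whether their transcripts reached the probes was not tested.

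**Figure D5:**
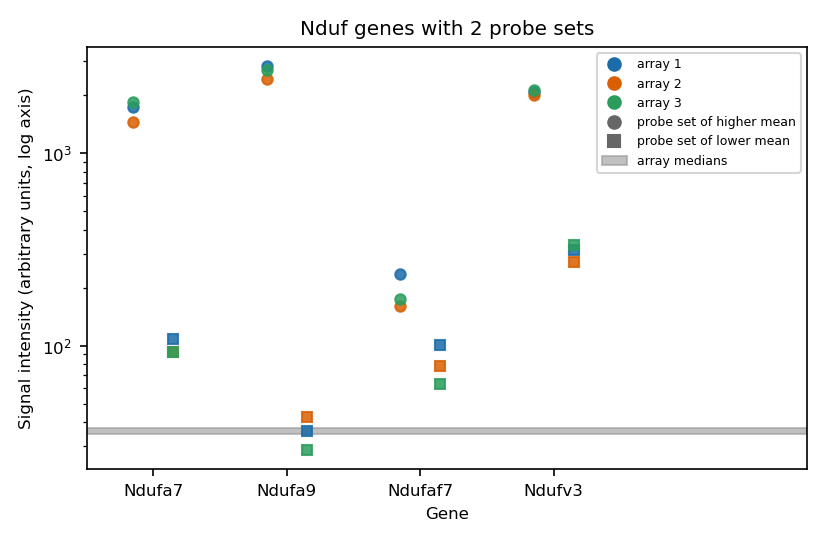
Signals on arrays 1, 2 and 3 (colours) of both probe sets of Ndufa7, Ndufa9, Ndufaf7 and Ndufv3, on a log axis, circles for the probe set of higher mean and squares for the other, with the span of the array medians in grey. Circles and squares do not overlap for any of the 4 genes, and the squares of Ndufa9 lie around the grey band.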

How the data were processed

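Total RNA of 3 rat proximal tubule preparations was measured on Affymetrix arrays from biotin-labelled cRNA, per the labels' protocols. The authors deposited linear signal intensities per probe set, and the summarisation software and the scaling between arrays are not given in the sources used here. The values were used as deposited. Of 31099 probe sets, 57 controls were left out, 20826 named 1 gene, 436 named several and were not used for genes. Each of 14217 genes took the probe set of highest mean signal. Of the 1-gene probe sets, 20758 matched a RefSeq gene identifier (GRCr8), which changed 0 symbols. Deviations used log2(signal + 16). No detection calls were used, and the number of arrays limits the precision.

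With 1 group no test was made, and lists are described by counts and medians beside all genes. The members and lists were chosen with earlier results of these data known. All members could be named, with values per array for the lowest and highest of each role, the 3 largest ranges and members whose probe sets straddled the median. Ndufv1, Ndufa1, Tmem70, Ppargc1a, Nrf1 and Gabpa were given values per array after these had been seen, as were the promoters chosen for printing. Python 3.11.15, pandas 2.3.3 and numpy 2.4.6 were used, and the calculations were tested on simulated data. Alternatives covered the probe set choice, pseudocount, scaling, filters and each array left out.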

Additional observations from a re-analysis of the deposited data

How the results depend on the processing

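The count of 41 members past the median of each array stayed between 40 and 42 under every alternative run except the line at the 75th percentile, which gave 38. The median percentile of the members moved from 96.4 to 96.8 when probe sets of a gene were averaged, to 96.7 with only probe sets without a suffix and to 95.5 without the lowest 20% of genes. Without the filter on the mean level, 1 member, Ndufa4l2, ranged by 2-fold or more in place of 0. The median deviation on array 1 went from 0.08 to 0.0050 after quantile normalization and 0.0054 without array 2. The median deviation on array 3 went from 0.04 to -0.00099 without centring, and from -0.0054 to 0.096 when an array was left out, the low value without array 2. The number of genes with probe sets on both sides of the median was between 0 and 1 when an array was left out, 0 without array 3. Quantile normalization, chosen for this count after seeing the data, took the members lowest on array 2 from 32 to 21, and the median deviation on array 2 from -0.13 to -0.019. The NRF1 motif stood in 7 to 9 member promoters. No paired analysis was possible because all arrays belong to 1 group. Without detection calls, signals near the array median, such as that of Ndufa4l2, cannot be called present or absent.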

Other observations

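Both probe sets that name an Nduf gene together with another gene were kept out of the values above. The probe set of Ndufs5, a membrane arm subunit, and its pseudogene Ndufs5-ps2 gave 3997, 3429.7 and 3515 on arrays 1, 2 and 3 (3647 ± 306, n = 3), with array 2 lowest. The probe set of Ndufa10, a membrane arm subunit, and its copy Ndufa10l1 gave 1909, 1455 and 967 (1444 ± 471), with array 3 lowest, so it did not follow the dip on array 2. Both exceeded the median of each array.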
